A study of Mus musculus with 10 samples.

Results

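The transcripts described here are those of 10 transcription factors that hold mouse embryonic stem cells (ESCs) in the naive pluripotent state, namely Nanog, Pou5f1, Sox2, Klf2, Klf4, Klf5, Esrrb, Tfcp2l1, Tbx3 and Zfp42. They were taken by symbol from a table of 51467 genes, and all 10 passed the filter on low counts that left 11683 genes to test. Messenger RNA was measured by QuantSeq, which makes reads only at the 3′ ends of polyadenylated transcripts. The 10 libraries came from mouse ESCs grown with serum, LIF and the MEK and GSK3 inhibitors known as 2i. Wild-type (WT) cells gave 3 libraries. DGCR8 knockout (DGCR8 KO) cells gave 3 libraries, and these lack the partner of Drosha that cuts miRNA hairpins out of primary transcripts. DDX6 knockout (DDX6 KO) cells, made with CRISPR and lacking an RNA helicase that works with the miRNA effector complex, gave 4 libraries, being 2 from clone 1 and 2 from clone 2. By the study's methods the WT line was V6.5 and both DDX6 KO clones were picked from it, while the DGCR8 KO cells are 1 line made in earlier work, so loss of the gene and the history of a line cannot be told apart. The cells are cultured lines, and in bulk libraries fewer cells of a type and less RNA per cell cannot be told apart.

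The naive network rests on a core of POU5F1 (OCT4) and SOX2, which bind DNA side by side, together with the homeodomain protein NANOG. Around this core stand factors that carry signals from the medium: KLF4 and TFCP2L1 are induced through LIF and STAT3, TBX3 responds to LIF through PI3 kinase, and ESRRB is released when GSK3 inhibition lifts repression by TCF7L1. KLF2, KLF4 and KLF5 are zinc finger proteins with overlapping roles, and ZFP42 (REX1) is a common marker of the naive state. The miRNAs that ESCs hold in the largest amount share the seed AAGUGCU and form the family of ESC-specific cell cycle regulating (ESCC) miRNAs, all of which need DGCR8.

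Because miRNAs repress through short matches in 3′ UTRs, mature ESCC miRNAs are shown first, 5′ to 3′ as RefSeq gives them for GRCm38.p6, with the seed at bases 2 to 8 in capitals.
mmu-miR-291a-3p: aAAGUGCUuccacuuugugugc
mmu-miR-294-3p: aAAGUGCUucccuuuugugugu
mmu-miR-295-3p: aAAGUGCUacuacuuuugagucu
mmu-miR-302b-3p: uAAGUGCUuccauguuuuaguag
mmu-miR-302d-3p: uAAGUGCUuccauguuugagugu
All 5 carry the identical seed, and the first 3 lie together on chromosome 7 while the miR-302 members lie on chromosome 3.

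A 3′ UTR match of 7 or 8 bases to this seed was found in 1 of the 10 factors, Tfcp2l1, against 20.1% of the 10962 tested genes that have a coding transcript with a 3′ UTR. The Tfcp2l1 site lay at chr1:118683205-118683211 on the plus strand (GRCm38), in a 3′ UTR of 7734 bases, where the median over those genes was 1061. It is shown with its surroundings, the bases that pair with the seed in capitals.
Tfcp2l1 site: ctcgatggccgAGCACTTcccaactgcga
A 6-base match, GCACTT, was also present once in the 3′ UTR of Tfcp2l1 and once in that of Tbx3. No such match was present in the annotated 3′ UTRs of the other 8 factors, which says only that these letters are absent from them.

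The 8 factors with a promoter entry, spanning 250 bases before to 50 bases after the start site, were searched on both strands for the octamer core TTTGCAT that POU5F1 recognises. It occurred in 4 of their 11 promoter entries, and in 4.63% of 32851 promoter entries in all. Those 4 came from Sox2, Zfp42 and Nanog, whose entries share the same octamer. These windows are shown because they hold the letters that POU5F1 recognises, with the core, or its reverse complement ATGCAAA, in capitals.
Nanog, chr6:122707392-122707441, plus strand: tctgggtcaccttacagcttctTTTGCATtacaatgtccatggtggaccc
Sox2, chr3:34649874-34649923, plus strand: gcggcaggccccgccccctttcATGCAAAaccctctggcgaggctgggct
Zfp42, chr8:43307167-43307216, minus strand: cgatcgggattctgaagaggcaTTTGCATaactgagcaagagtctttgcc
The SOX core, searched only as the exact letters AACAAT, was found in 2 of the 11 entries, from Esrrb and Pou5f1, against 10.7% of all promoters. Near matches, such as the tacaat just after the octamer of Nanog, were not counted. The CACCC box CCACCC, to which KLF proteins bind, was found in 7 of the 11 entries, against 31.5% of all promoters. These came from Esrrb, Klf2, Nanog, Pou5f1 and Zfp42. The motif AAGGTCA of ESRRB was in none of the 11, against 4.72% of all promoters. No binding was measured here, and a match is a description of the sequence.

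Total counts over genes ran from 2131156 to 4745083 per library. The factors held 106 to 5555 counts each. Levels below are in CPM, a count scaled to the library's total over tested genes and then by TMM, a trimmed mean of the log ratios between libraries. Dgcr8 mRNA stood at 9.16 to 15.5 CPM in the DGCR8 KO libraries against 50.4 to 65.8 in WT. Ddx6 mRNA stood at 135 to 149 CPM in clone 1 and 25.7 to 39.0 in clone 2, against 505 to 586 in WT. Both targeted transcripts followed the labels. The labelled cell type was checked by its markers. The 10 factors summed to 4722 to 5135 CPM in WT, while 8 fibroblast markers, which feeder cells would bring, summed to 5.35 to 8.64 CPM with Dcn and Postn at 0 in all WT libraries. The summed markers of each other cell type stayed far below the summed factors but moved between genotypes. Single markers could exceed single factors: in WT Dnmt3b stood at 194 CPM, against 108 for Klf5 and 53.9 for Pou5f1. The 9 primitive endoderm markers summed to 41.3 to 45.5 CPM in WT, 14.9 to 21.2 in DGCR8 KO and 42.6 to 56.7 in DDX6 KO. The 8 trophectoderm markers summed to 113 to 153, 182 to 217 and 89.7 to 131 CPM in the same order, with Elf5 at 0 throughout. Of these sums, Tfap2c alone had means of 90.3, 164 and 59.4 CPM. In DDX6 KO the log2 fold changes against WT were -0.65 for Tfap2c, -0.76 for Gata3 and -0.12 for Eomes. They were 1.94 for Krt8 and 1.29 for Krt18, against the direction of the sum. The 6 neural ectoderm markers summed to 109 to 137, 48.2 to 72.9 and 128 to 184 CPM. The 11 formative or primed epiblast markers summed to 302 to 433, 325 to 390.1 and 235 to 291 CPM, with Fgf5 at 0 throughout. These sums mix directions. In DDX6 KO the log2 fold changes against WT were 1.37 for Sox1, -0.90 for Nes, -0.23 for Tubb3 and -0.51 for Pax6. In DGCR8 KO they were -0.75, -1.39, -1.55 and 2.58. Of the formative markers in DDX6 KO, Dnmt3a (0.60), Sox3 (1.31) and Cldn6 (0.24) stood above WT. Otx2 (-2.22), Lef1 (-4.89), Dnmt3b (-1.35), Pou3f1 (-0.33), Zic2 (-0.17) and Sall2 (-0.03) stood below it. The neural markers Sox1 and Tubb3 and the primitive endoderm marker Col4a1 lie on chromosome 8, whose median was lower in DGCR8 KO, as given below. The 8 markers of 2-cell-like cells summed to 0.960 to 6.13, 3.26 to 12.6 and 15.7 to 30.5 CPM. Their part in the results below was not tested.

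In WT cells the 10 factors ran from 53.9 ± 5.28 CPM (SD, n = 3) for Pou5f1 to 1041 ± 218 CPM for Tfcp2l1, a level above that of 99.2% of tested genes. Klf4 stood second at 942 ± 109 CPM, followed by Klf2, Nanog, Sox2, Tbx3, Esrrb, Zfp42 and Klf5. The ranges of neighbours in that order overlapped from Tfcp2l1 to Klf4 and from Klf2 through to Esrrb, and separated between Klf4 and Klf2, between Esrrb and Zfp42, between Zfp42 and Klf5, and between Klf5 and Pou5f1. Per kilobase of counted exon the order opened with Klf2 at 332 CPM per kb, Klf4 at 311 and Sox2 at 273, and Tfcp2l1 stood at 112. QuantSeq reads come from transcript ends, so CPM itself does not grow with transcript length in the way of reads spread over whole transcripts, and both scales are given.

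The levels of Pou5f1 and Klf5 carry limits of their own. For Pou5f1, 134 of the 451 stretches of 50 bases in the last 500 bases of the transcript (29.7%) occur without a mismatch in transcripts of 2 other genes. Reads from there may not map uniquely, though whether those genes overlap Pou5f1 was not checked. None of those stretches lies within the final 250 bases. For the other 9 factors no stretch was shared. The principal Klf5 transcript in the newer annotation ends 1631 bases beyond the exons that were counted, so reads at that end were not counted for Klf5. Both levels may therefore be too low, and whether this differed between genotypes was not tested.

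**Figure D1:**
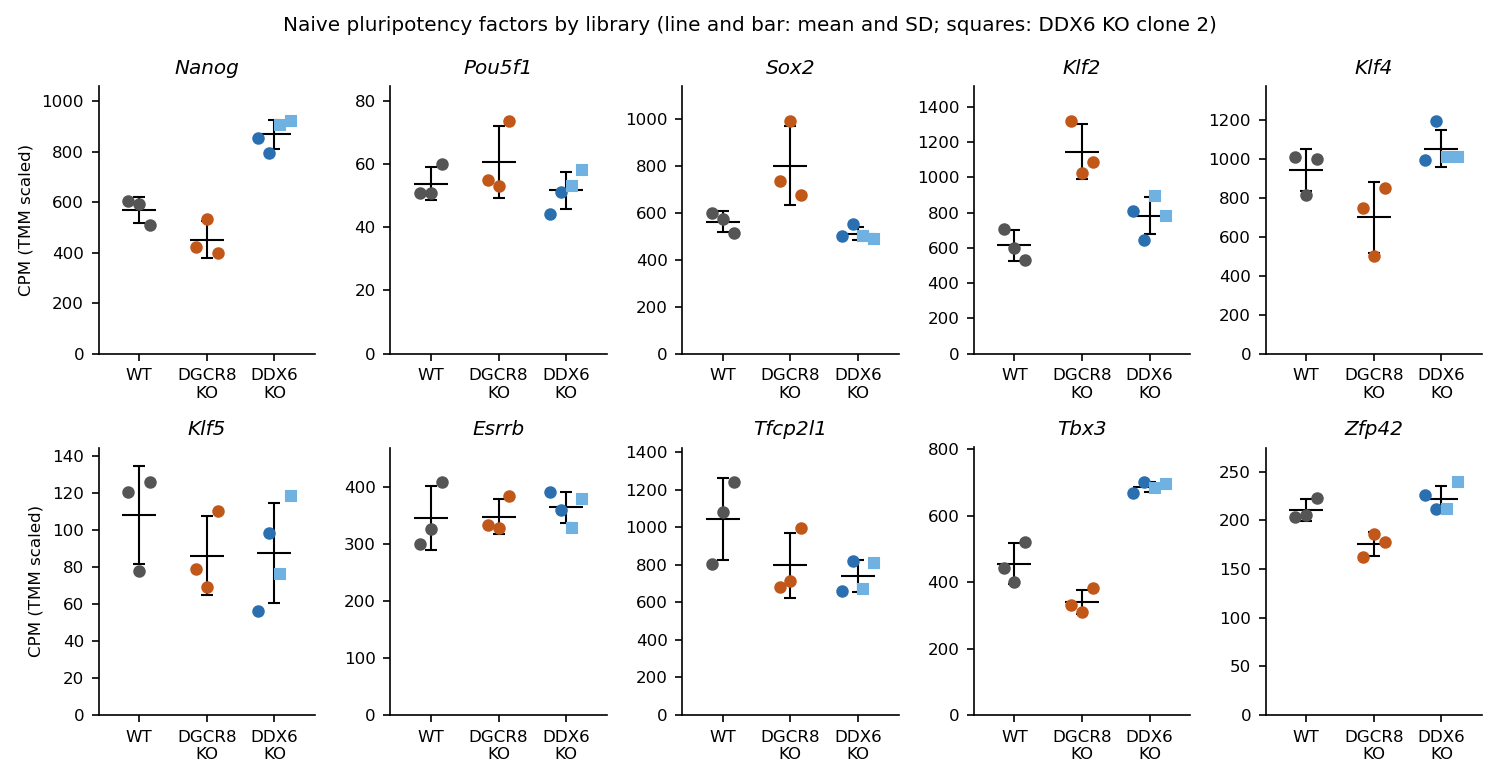
Level of each factor in TMM-scaled CPM, on an axis that starts at 0, with 1 point per library, a line at the mean and a bar of 1 SD for WT (n = 3), DGCR8 KO (n = 3) and DDX6 KO (n = 4, clone 1 as circles and clone 2 as squares). The Klf2 points of DGCR8 KO and the Nanog and Tbx3 points of DDX6 KO lie above all WT points.

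The first comparison asked how the factors stand in cells without mature canonical miRNAs. In DGCR8 KO cells 7 of the 10 factors passed the test against WT (limma on voom-weighted log2 CPM, Benjamini-Hochberg adjusted p under 0.05 over all tested genes). Klf2 and Sox2 rose, while Nanog, Klf4, Tfcp2l1, Tbx3 and Zfp42 fell. The 2 that rose compare with 19.9% of all tested genes higher in this contrast, and the 5 that fell with 16.5% lower. No factor changed by more than 1 on the log2 scale, whereas 14.7% of tested genes passed and exceeded that size. The libraries of both genotypes did not overlap for 4 factors, against 44.8% of all tested genes. The median log2 fold change was -0.30 over the 10 factors and 0.00 over all tested genes.

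Of the core factors, Sox2 was at 601, 573 and 514 CPM in WT and at 736, 992 and 676 CPM in DGCR8 KO. Every DGCR8 KO library lay above every WT library. The log2 fold change of Sox2 was 0.50 ± 0.12 (SE, adjusted p = 0.00298). Nanog was at 604, 592 and 511 CPM in WT and at 422, 534 and 398 in DGCR8 KO, where the second DGCR8 KO library reached above the lowest WT library. Its mean was 79.3% of WT, with a log2 fold change of -0.33 ± 0.11 (adjusted p = 0.0281). Pou5f1 was at 50.8 to 60.0 CPM in WT and at 52.9 to 73.7 CPM in DGCR8 KO, with overlapping libraries and a log2 fold change of 0.13 ± 0.15 (adjusted p = 0.551), so that no change in this transcript was detectable at the 106 to 269 counts these libraries held for it.

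The KLF factors parted in DGCR8 KO cells. Klf2 was at 707, 601 and 533 CPM in WT and at 1321, 1023 and 1090.3 CPM in DGCR8 KO. All DGCR8 KO values lay above all WT values, and the mean was 1.87 times that of WT. This was the largest change among the factors, a log2 fold change of 0.92 ± 0.13 (adjusted p = 2.21e-05). Klf4 was at 1009.7, 817 and 999 CPM in WT against 749.8, 499 and 852 CPM, with 2 DGCR8 KO libraries below all WT libraries and the third inside their range. Its log2 fold change was -0.46 ± 0.15 (adjusted p = 0.0188). Klf5 was at 121, 77.7 and 126 CPM in WT and 79.0, 68.9 and 110.0 CPM in DGCR8 KO, with a log2 fold change of -0.34 ± 0.23 that did not pass (adjusted p = 0.267).

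Among the remaining factors, Tbx3 and Zfp42 were lower in every DGCR8 KO library than in any WT library. Tbx3 was at 442, 401 and 522 CPM in WT and at 330.1, 311 and 381 CPM in DGCR8 KO, with a log2 fold change of -0.43 ± 0.11 (adjusted p = 0.00523). Zfp42 was at 204, 205 and 223 CPM in WT and at 162, 186 and 178 CPM in DGCR8 KO. Its log2 fold change of -0.27 ± 0.11 lay at the edge of the threshold (adjusted p = 0.0499), and the call was lost under 12 of 21 alternatives, besides the turn of sign relative to its chromosome given below. Tfcp2l1, the 1 factor with an ESCC seed match of 7 or 8 bases, was at 807, 1078 and 1238 CPM in WT and at 681, 715 and 995 CPM in DGCR8 KO. It was lower in DGCR8 KO, with a log2 fold change of -0.41 ± 0.15 (adjusted p = 0.0382) although its libraries overlapped WT, and lost the call under 7 of 21 alternatives. Without WT replicate 3 it was -0.27. Esrrb was at 301 to 408 CPM in WT and 327 to 384 CPM in DGCR8 KO, a log2 fold change of 0.00 ± 0.12 (adjusted p = 0.990).

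Leaving out single libraries moved the count of factors past the test between 4 and 7. Nanog lost the call without WT replicate 1 or 2 or DGCR8 KO replicate 1 or 3, and Klf4 lost it without WT replicate 1 or 3 or DGCR8 KO replicate 2, with adjusted p of up to 0.119 and 0.121. Without DGCR8 KO replicate 2, its lowest library, the log2 fold change of Klf4 was -0.23 in place of -0.46. Sox2, Klf2 and Tbx3 passed in each of the 21 alternatives that were run.

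The second comparison asked how the factors stand in cells without DDX6. In DDX6 KO cells 4 of the 10 factors passed, of which Nanog, Tbx3 and Klf2 rose and Tfcp2l1 fell. This compares with 17.9% of all tested genes higher and 16.6% lower. None exceeded 1 on the log2 scale, against 11.2% of tested genes, and the libraries did not overlap for 2 factors, against 39.9% of tested genes. The median log2 fold change was 0.07 over the factors and 0.02 over all tested genes.

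Nanog stood at 853 and 795 CPM in clone 1 and at 906 and 922 CPM in clone 2, above the highest WT library at 604 CPM. Its mean was 153% of WT and its log2 fold change 0.62 ± 0.10 (adjusted p = 0.000171). Tbx3 stood at 667 and 700.1 CPM in clone 1 and at 685 and 695 CPM in clone 2, again above all WT libraries, with a log2 fold change of 0.59 ± 0.10 (adjusted p = 0.000179). These 4 Tbx3 values varied by 2.14% of their mean, where counting error alone would give 2.20%. The mean of Tbx3 was 151% of WT.

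Klf2 was at 811 and 642 CPM in clone 1 and at 896 and 782 CPM in clone 2. Each was above the WT mean of 614 CPM, but 1 library of clone 1 fell inside the WT range. Its log2 fold change was 0.36 ± 0.12 (adjusted p = 0.0273), and the call was lost without WT replicate 2 or 3 or any of 3 DDX6 KO libraries (clone 1 replicate 1, clone 2 replicates 1 and 2). Tfcp2l1 was at 662 and 818 CPM in clone 1 and at 668 and 807 CPM in clone 2. All 4 values lay below the WT mean, and 2 of them below the lowest WT library. The log2 fold change was -0.50 ± 0.14 (adjusted p = 0.0103), and without WT replicate 3, the highest WT library for this gene, it did not pass (adjusted p = 0.0994). Without that WT library 2 of the 10 factors passed, Nanog and Tbx3.

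The other 6 factors did not pass in DDX6 KO cells. Sox2 was at 488 to 554 CPM with a log2 fold change of -0.13 ± 0.11 (adjusted p = 0.403), and Pou5f1 at 44.3 to 58.2 CPM with -0.07 ± 0.15 (adjusted p = 0.733). Klf4 was at 994 to 1195 CPM with 0.16 ± 0.13 (adjusted p = 0.368). Klf5 spread most, from 56.0 to 118 CPM, with -0.32 ± 0.21 (adjusted p = 0.265). Esrrb was at 328 to 390.4 CPM with 0.07 ± 0.11 (adjusted p = 0.644), and Zfp42 at 212 to 239 CPM with 0.07 ± 0.10 (adjusted p = 0.589).

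The clones were then compared with WT one at a time, in a fit with a group for each clone. Clone 1 gave 3 factors past the test, with Nanog (log2 fold change 0.55 ± 0.12) and Tbx3 (0.59 ± 0.12) higher and Tfcp2l1 (-0.50 ± 0.18) lower, where 13.1% of tested genes were higher and 10.7% lower. Clone 2 gave 4, with Nanog (0.70 ± 0.12), Tbx3 (0.60 ± 0.12) and Klf2 (0.47 ± 0.14) higher and Tfcp2l1 (-0.50 ± 0.17) lower, where 13% were higher and 11.6% lower. Klf2 in clone 1 had a log2 fold change of 0.25 ± 0.14 (adjusted p = 0.210). Tfcp2l1 lost the call under 11 of 21 alternatives in either clone, and Nanog in clone 1 lost it without clone 1 replicate 1 and relative to its chromosome. Klf2 in clone 2 lost it without WT replicate 2 or 3 or clone 2 replicate 1. Between the clones no factor passed in limma, none had an unadjusted p under 0.05 as measured, and the counts were also 0 in edgeR and DESeq2. Relative to the chromosome Nanog alone had one, at 0.26 ± 0.12 from clone 1 to clone 2 (unadjusted p = 0.044 in limma, adjusted p = 1.0). In all, 0.0428% of tested genes passed between the clones. With 2 libraries a clone the errors were wide, as for Klf5 at 0.37 ± 0.29 from clone 1 to clone 2.

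**Figure D2:**
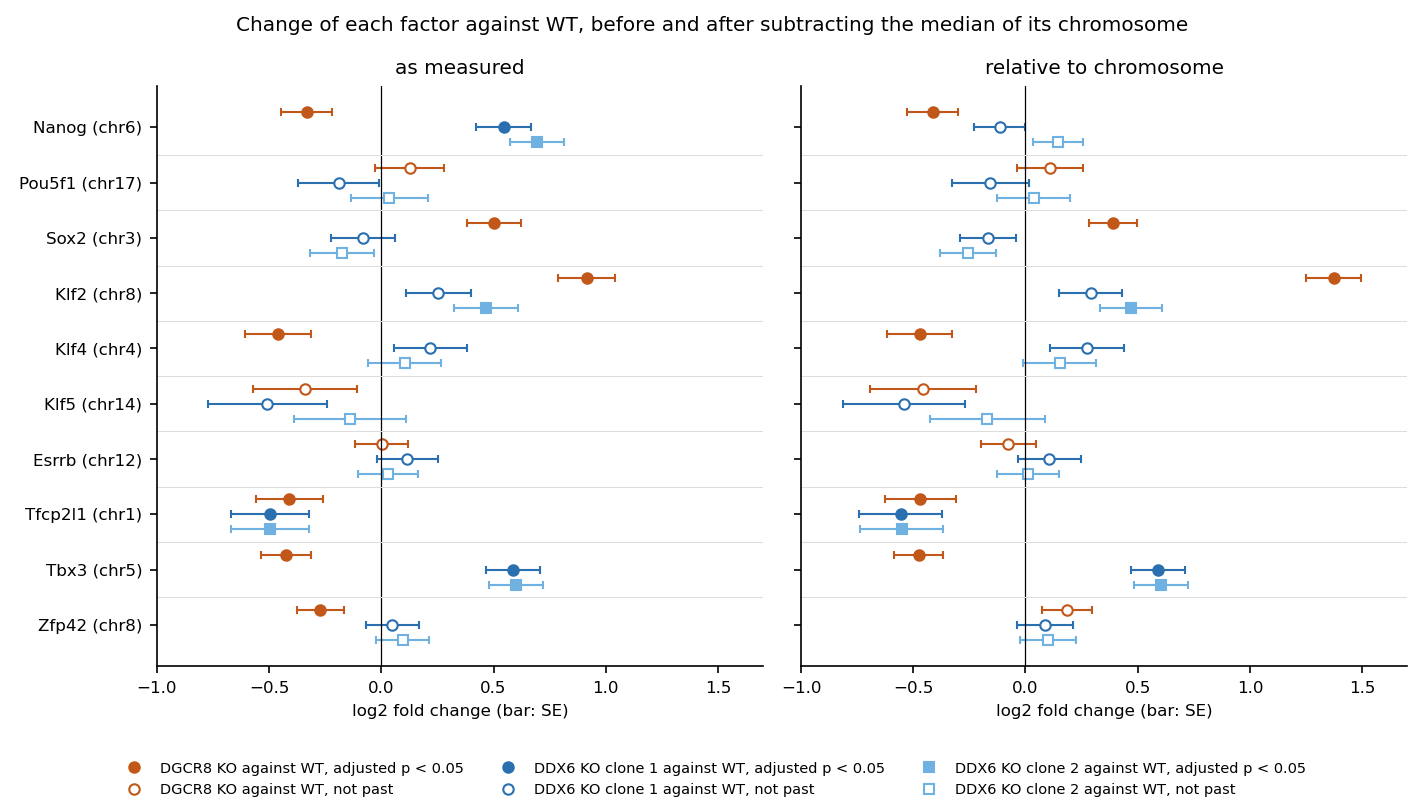
Log2 fold change of each factor against WT with its SE, for DGCR8 KO, DDX6 KO clone 1 and DDX6 KO clone 2, as measured on the left and after subtracting the median of the chromosome in each library on the right, with filled symbols where the adjusted p was under 0.05. Nanog in DDX6 KO moves to -0.12 and 0.15 in the clones on the right, Klf2 in DGCR8 KO moves further from 0, and Tbx3 stays where it was.

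The medians of 2 chromosomes were shifted in the knockout lines, and 3 of the 10 factors lie on them. The median of chromosome 6, which holds Nanog at chr6:122707489-122714633 (GRCm38), was higher than the WT mean by 0.53 to 0.68 on the log2 scale in the 4 DDX6 KO libraries, and by 0.04 to 0.14 in DGCR8 KO. The median of chromosome 8, which holds Klf2 at chr8:72319033-72321656 and Zfp42 at chr8:43295063-43306980, differed from the WT mean by -0.52 to -0.40 in the DGCR8 KO libraries, and by -0.05 to 0.01 in DDX6 KO. The number of copies of these chromosomes was not measured. The other factors lie elsewhere, Tfcp2l1 at chr1:118627946-118685168, Sox2 at chr3:34650405-34652461, Klf4 at chr4:55527143-55532466, Tbx3 at chr5:119670669-119684724, Esrrb at chr12:86361117-86521628, Klf5 at chr14:99298691-99313405 and Pou5f1 at chr17:35506018-35510772.

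Nanog in DDX6 KO stood at the middle of its surroundings. Over the 560 other tested genes of chromosome 6 the median log2 fold change was 0.59, and the 82 within 5 Mb of Nanog one of 0.62, with quartiles of 0.35 and 1.13. Nanog, at 0.62, was above 41 of those 82 genes. After the chromosome median was subtracted in each library, the log2 fold change of Nanog was 0.02 ± 0.10 (adjusted p = 0.916), with -0.12 ± 0.11 in clone 1 and 0.15 ± 0.11 in clone 2. This value depended on the filter on low counts: without that filter it was 0.28 and passed the limma test (adjusted p = 0.0401). Why it moved was not tested. In DGCR8 KO the log2 fold change of Nanog on this scale was -0.41 ± 0.11 (adjusted p = 0.00844).

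Klf2 in DGCR8 KO cells moved against its chromosome. Its neighbours within 5 Mb, 101 tested genes, showed a median of -0.62 on the log2 scale, and 99 of them lay below Klf2 at 0.92. Relative to the chromosome the log2 fold change of Klf2 was 1.37 ± 0.12 (adjusted p = 1.23e-07), or 2.59-fold, and it was the 1 factor past the test and beyond 1 in size on this scale, as 14.2% of tested genes were. In DDX6 KO, where chromosome 8 did not shift, Klf2 changed by 0.38 ± 0.12 (adjusted p = 0.0173) relative to it. Zfp42 in DGCR8 KO was lower, as was the median of its chromosome. Its 32 neighbours had a median of -0.43 in DGCR8 KO, Zfp42 at -0.27 was above 21 of them, and relative to the chromosome its log2 fold change was 0.19 ± 0.11 (adjusted p = 0.203), which did not pass the test.

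Relative to the chromosome, 6 factors passed in DGCR8 KO, with Klf2 and Sox2 higher and Nanog, Klf4, Tfcp2l1 and Tbx3 lower, where 19.1% of tested genes were higher and 16.4% lower. In DDX6 KO 3 passed, with Klf2 and Tbx3 higher and Tfcp2l1 lower, where 15.4% were higher and 17.3% lower. Leaving out WT replicate 3 left Tbx3 as the 1 factor past the test in DDX6 KO on this scale. Tbx3 in DDX6 KO stood at 0.60 ± 0.10 on this scale (adjusted p = 0.000149). As measured, at 0.59, Tbx3 was above 109 of its 123 neighbours, whose median was -0.02. Klf4 in DGCR8 KO stood at -0.47 ± 0.15 on this scale. As measured Klf4 was at -0.46, while its 32 neighbours had a median of 0.41 and 3 of them lay below it. Tfcp2l1 in DDX6 KO stood at -0.55 ± 0.15 on this scale. As measured, at -0.50, Tfcp2l1 was above 4 of 17 neighbours, whose median was -0.28.

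**Figure D3:**
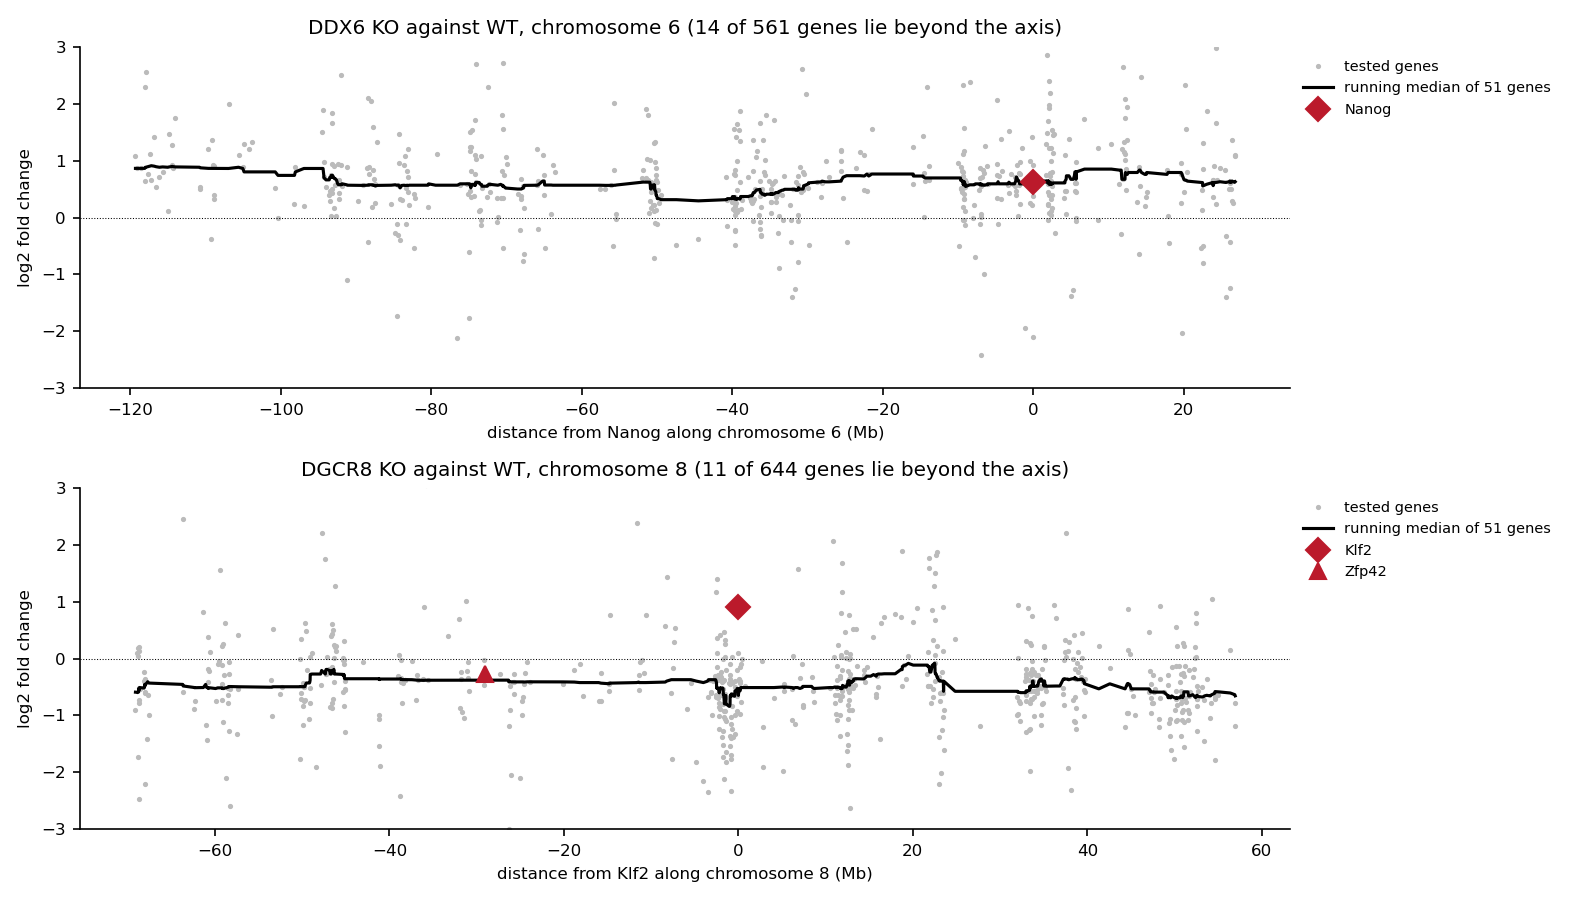
Log2 fold change of tested genes against their distance in Mb from Nanog on chromosome 6 in DDX6 KO (upper panel) and from Klf2 on chromosome 8 in DGCR8 KO (lower panel), with a running median over 51 genes as a black line and the factors in red. Nanog lies on the raised line, Zfp42 just above the lowered line, and Klf2, at 0.92, far above it.

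Other pluripotency genes lie close to Nanog. Dppa3, a maternal factor also known as Stella whose gene lies 82.7 kb away, fell in DDX6 KO with a log2 fold change of -2.11 ± 0.38 (adjusted p = 0.000359) and in DGCR8 KO with -2.29 ± 0.45 (adjusted p = 0.000633), at a level of 14.2 CPM in WT. Slc2a3, which encodes a glucose transporter 24.2 kb away, rose in DDX6 KO by 0.92 ± 0.10 (adjusted p = 2.31e-06) and, relative to the chromosome, by 0.32 ± 0.09 (adjusted p = 0.0103). In DGCR8 KO Slc2a3 fell, with -0.83 ± 0.11 (adjusted p = 1.92e-05). Gdf3, the third listed gene within 0.5 Mb, named after its values were seen, did not pass in either knockout (0.23 ± 0.14 in DDX6 KO and 0.19 ± 0.15 in DGCR8 KO). Slc2a3 passed in the direction of Nanog in both knockouts and Dppa3 fell in both, and no test compared these genes with one another.

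The third comparison set the knockouts against each other, which tests whether their effects differ. Between DGCR8 KO and DDX6 KO 6 factors passed, with Sox2 and Klf2 higher in DGCR8 KO and Nanog, Klf4, Tbx3 and Zfp42 higher in DDX6 KO. Of all tested genes 23.0% were higher in DGCR8 KO and 21.0% lower. The largest difference was that of Tbx3, at -1.02 ± 0.10 (adjusted p = 3.3e-07), from 341 ± 36.4 CPM in DGCR8 KO to 687 ± 14.7 CPM in DDX6 KO. It was the 1 factor past the test and beyond 1 in size, as 17.1% of tested genes were. Nanog differed by -0.95 ± 0.10 (adjusted p = 1.09e-06), Sox2 by 0.63 ± 0.11 (adjusted p = 0.00019) and Klf4 by -0.62 ± 0.14 (adjusted p = 0.00124). Without DGCR8 KO replicate 2 the difference of Klf4 was -0.39 and still passed. Zfp42, at -0.35 ± 0.10 (adjusted p = 0.00832), lost the call without DGCR8 KO replicate 1. In each of the 6 no library of one knockout overlapped with the other, against 45.8% of tested genes.

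Relative to their chromosomes 5 of these 6 passed, Zfp42 being the exception at 0.09 ± 0.10 (adjusted p = 0.498). Here 23.1% of tested genes were higher and 19.1% lower. The difference of Nanog shrank to -0.43 ± 0.11 (adjusted p = 0.00300), and that of Klf2 grew to 0.99 ± 0.11 (adjusted p = 1.6e-06). Tbx3, at -1.07 ± 0.10 (adjusted p = 1.31e-07), was again the 1 factor beyond 1 in size, against 16.4% of tested genes.

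The factors also changed places among themselves. In WT the counts of all 10 were led by Klf4 and Tfcp2l1, which held 17.3% to 20.8% and 16.6% to 24.1% of them. In DGCR8 KO Klf2 came first with 21.2% to 27.1%, up from 10.4% to 14.6% in WT, and Sox2 held 13.2% to 21.1% against at most 12.4% in WT. In DDX6 KO Nanog held 14.7% to 17.0%, against 9.96% to 12.5% in WT, and Tbx3 12.6% to 12.9% against 8.49% to 10.2%. The 10 factors together took 0.459% to 0.485% of all counts in WT, 0.456% to 0.483% in DGCR8 KO and 0.545% to 0.581% in DDX6 KO. These shares rest on total counts, a scaling under which the median of all genes in DDX6 KO was higher by 0.12 on the log2 scale. In TMM-scaled CPM the sums were 4722 to 5135 in WT, 4709 to 5137 in DGCR8 KO and 5206 to 5498 in DDX6 KO. On both scales the sum overlapped WT in DGCR8 KO and lay above it in every DDX6 KO library, in CPM with little between the ranges. These sums include Nanog, with means of 569 CPM in WT and 869 CPM in DDX6 KO, which lies on chromosome 6 with its raised median there. In all genotypes Zfp42, Klf5 and Pou5f1 held the lowest places by CPM, in that order.

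**Figure D4:**
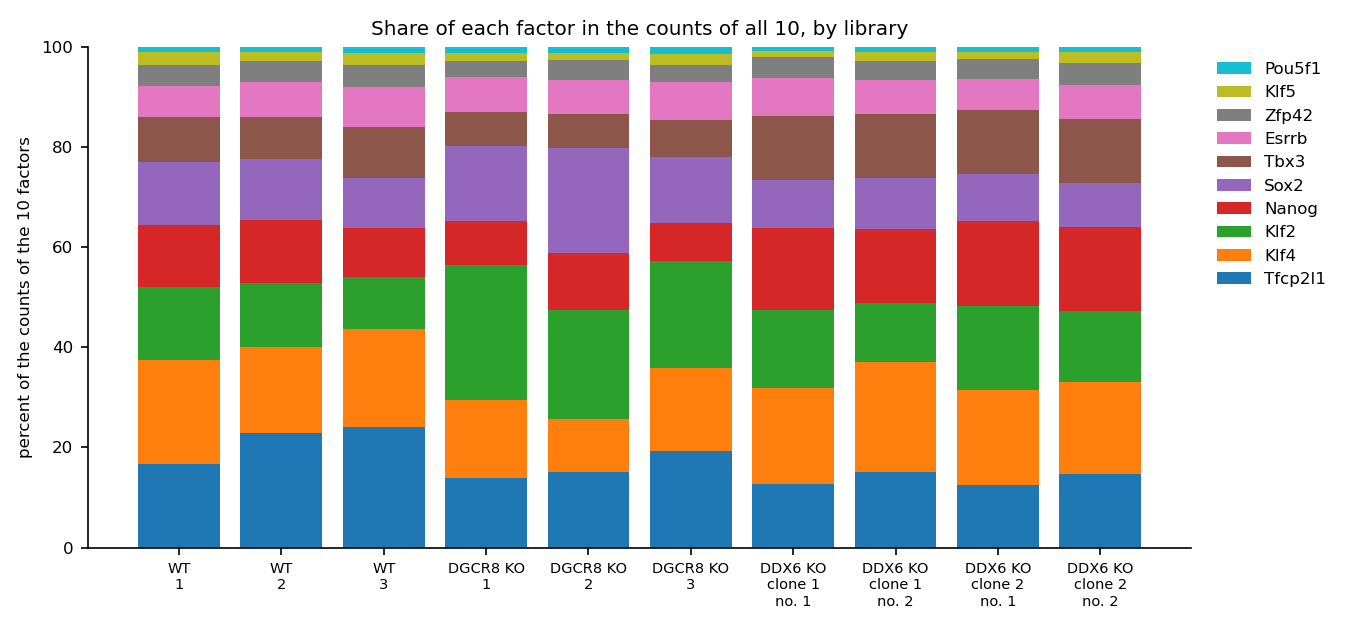
Share of each factor in the summed counts of all 10, in percent, as 1 stacked bar for each library. The Klf2 band widens to 21.2% to 27.1% in the DGCR8 KO libraries, and the Nanog and Tbx3 bands are wider in the 4 DDX6 KO libraries than in WT.

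Around the factors, 20 regulators that work with them in naive cells were followed as a list, and all were tested. Values given for list genes are log2 fold changes against WT. In DGCR8 KO 4 rose and 4 fell, with a median log2 fold change of 0.11. Of all tested genes 19.9% were higher and 16.5% lower here, and 17.9% and 16.6% in DDX6 KO, so the DGCR8 KO counts of this list were close to the share of all genes. The dioxygenase gene Tet1 rose by 0.52 (adjusted p = 0.00696). Nr5a2, a nuclear receptor that activates Pou5f1, had a log2 fold change of -0.73 (adjusted p = 7.34e-05) and Sall4 one of -0.61 (adjusted p = 0.00162). In DDX6 KO 2 rose and 7 fell, with a median of -0.10. Those that fell included Mybl2 at -1.48 (adjusted p = 2.32e-07), Zscan10 at -1.31 (adjusted p = 0.0016), Gbx2 at -1.27 (adjusted p = 0.0182), Tcl1 at -1.08 (adjusted p = 0.000367), Sall4 at -1.03 (adjusted p = 9.95e-06) and Nr5a2 at -0.70 (adjusted p = 7.26e-05). Pou5f1, Esrrb and Sox2 did not pass in the same comparison.

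A second list held 18 effectors and common ESC markers, of which 17 were tested. In DGCR8 KO 5 rose and 4 fell, with a median of 0.19, where 19.9% and 16.5% of all tested genes did. In DDX6 KO 2 rose and 7 fell, with a median of -0.38, where 17.9% and 16.6% did. Alpl, the alkaline phosphatase used to stain ESC colonies, rose by 0.98 (adjusted p = 5.36e-06) in DGCR8 KO, as did the adhesion gene Pecam1 by 0.95 (adjusted p = 1.47e-06), while Fbxo15 (-0.98, adjusted p = 6.39e-05) and Fgfr1 (-0.86, adjusted p = 0.000667) fell. In DDX6 KO Pecam1 (-0.79, adjusted p = 2.37e-05), L1td1 (-0.73, adjusted p = 3.17e-05) and Mylpf (-1.24, adjusted p = 4.22e-05) fell. Manba rose by 2.56 (adjusted p = 0.00794), with 97.5 ± 48.3 CPM in DDX6 KO and a wide spread in DGCR8 KO, 90.0 ± 113 CPM. Fgfr1 lies on chromosome 8.

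Paralogues of the factors were followed too, beside the same shares of all tested genes, 19.9% higher and 16.5% lower in DGCR8 KO and 17.9% and 16.6% in DDX6 KO. Of the other KLF genes 10 of 14 were tested, and 5 passed in DGCR8 KO and 6 in DDX6 KO. In DGCR8 KO 4 rose, namely Klf3 (0.78, adjusted p = 0.000218), Klf13 (0.71, adjusted p = 0.000111), Klf6 (0.68, adjusted p = 0.00668) and Klf11 (0.61, adjusted p = 0.0107), and Klf16 fell (-0.47, adjusted p = 0.0392). In DDX6 KO 6 rose and none fell, led by Klf7 (1.40, adjusted p = 2.73e-06) and Klf6 (1.24, adjusted p = 2.62e-05). The median of the 10 was 0.33 in DGCR8 KO and 0.45 in DDX6 KO, where the medians of all tested genes were 0.00 and 0.02. Of the other SOX genes 8 of 16 were tested, with medians of 0.43 and 0.55. Sox11 (1.77, adjusted p = 1.49e-06) and Sox13 (1.43, adjusted p = 5.31e-05) rose and Sox4 (-0.86, adjusted p = 0.00767) and Sox1 (-0.75, adjusted p = 0.033) fell in DGCR8 KO, which has Sox1 on its shifted chromosome 8. In DDX6 KO 4 rose, Sox4 (1.58, adjusted p = 1.8e-06), Sox1 (1.37, adjusted p = 5.61e-05), Sox3 (1.31, adjusted p = 0.00946) and Sox11 (0.89, adjusted p = 0.00177), and Sox21 (-1.21, adjusted p = 0.00631) and Sox12 (-0.73, adjusted p = 0.00108) fell. Sox1 and Sox3 are members of the same subfamily as Sox2 and were at 34.3 and 5.23 CPM in WT, far below Sox2 at 562 CPM.

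For the 7 factors past the test in a knockout, the genes with the most similar pattern over the 10 libraries were sought among the 8632 tested genes whose mean reached 10 CPM, by the root mean square difference of log2 CPM centred on the WT mean. Those most like Nanog were Slc45a4 (0.09) and Pcyox1 (0.10), the latter also on chromosome 6. Those most like Tbx3 were Rhno1 (0.11), which lies on chromosome 6, and Gpat4 (0.13), which lies on chromosome 8. For Klf2 they were Msl1 (0.11) and Frrs1 (0.12), for Klf4 Fto (0.09, on chromosome 8) and Dlgap4 (0.13), for Sox2 Appbp2 (0.09) and Atp2c1 (0.10), for Tfcp2l1 Polr2e (0.11) and Abcf2 (0.11), and for Zfp42 Syncrip (0.07) and Cwc22 (0.08). None of these 14 genes is on the lists above.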

How the data were processed

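The values used are counts of uniquely mapped QuantSeq reads per gene, as the authors deposited them. Per the file header and the submitters' processing notes, the authors trimmed reads with cutadapt 1.14, aligned them to mm10 with STAR 2.5.3a and used featureCounts 1.5.3, set to the transcript's own strand, with Gencode exons. Molecular identifiers are not mentioned, and the errors given are those between libraries. Spike-in counts were set apart. Symbols, 3′ UTRs and transcript ends came from Gencode M21 (GRCm38), and promoters and miRNAs from RefSeq.

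The study's filter was kept, which asks for 3 CPM or more in 3 or more libraries. Scaling was by TMM (edgeR 4.0.16), and values were fitted with limma 3.58.1 and voom in R 4.3.3, with genotype as the only term over all 10 libraries. The study used limma without stating a transformation, so voom was chosen here. A second fit gave each DDX6 KO clone a group. Values relative to the chromosome had the median of the other tested genes of that chromosome (log2 CPM minus the WT mean) subtracted in each library. The script was tested on simulated data. Libraries of a group are separate samples by their labels, and p-values measure the spread between them, which may be technical. No library pair of a group agreed within sampling noise. The factors and gene lists were chosen with earlier results of these data known. Beside the factors and both targeted genes, list genes were named where they passed in a knockout against WT, at most 6 per list and contrast by size (1 such gene is counted but not reported by name here), and 2 most similar genes were named for each factor past the test. Whether equal replicate numbers pair the libraries was checked by correlating deviations from group means. Equal numbers gave 0.118, 0.235 and 0.244 for WT with DGCR8 KO, and different numbers -0.224 to -0.016, so equal numbers may mark pairs there. The values given are from the fit without a block, since the study's methods name none. That fit ignores any such pairing. Blocked values are given below where they change a call or a count. Alternatives were edgeR, DESeq2 1.42.0, limma-trend, other scalings and filters, the replicate block, fits of fewer groups and leaving out each library.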

Additional observations from a re-analysis of the deposited data

Results flagged for a closer look

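Among the 10 factors in the 4 DDX6 KO libraries, 1 value stood apart from the rest of its group, Klf4 at 1195 CPM in the second library of clone 1, where the other 3 libraries lay between 994 and 1009 CPM. Chance alone would set apart about 1 in 20 such groups, and 10 were examined. Without that library the log2 fold change of Klf4 in DDX6 KO against WT was 0.10 (adjusted p = 0.617), against 0.16 with it.

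For 6 factors DGCR8 KO and DDX6 KO, which share their WT libraries, differed in effect by the direct test (limma, n = 3 and 4). DGCR8 KO minus DDX6 KO was -0.95 for Nanog, 0.63 for Sox2, 0.55 for Klf2, -0.62 for Klf4, -1.02 for Tbx3 and -0.35 for Zfp42 on the log2 scale. Every library of DGCR8 KO lay on the same side of every DDX6 KO library for each of these 6. Relative to the chromosome the value for Zfp42 was 0.09 and did not pass.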

How the results depend on the processing

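With the replicate block the counts of factors past the test were 7 in DGCR8 KO, 4 in DDX6 KO and 6 between the knockouts, as without it. In DGCR8 KO against WT, limma with the block gave Tfcp2l1 an adjusted p of 0.000472, against 0.0382 without it. The adjusted p was 0.00447 against 0.0281 for Nanog, 0.00273 against 0.0188 for Klf4 and 0.033 against 0.0499 for Zfp42. Relative to the chromosome the replicate block gave 5 factors in DDX6 KO against 3 without it, adding Klf4 (0.32, adjusted p = 0.0287) and Sox2 (-0.28, adjusted p = 0.0195). On that scale the block also added Esrrb between the knockouts (-0.24, adjusted p = 0.0331). Against WT it added Klf4 in clone 1 (0.38, adjusted p = 0.0248) and Sox2 in clone 2 (-0.32, adjusted p = 0.0234). The block moved Tfcp2l1 in DDX6 KO from -0.50 to -0.33, still past the test. As with DGCR8 KO, WT and DDX6 KO share only replicate numbers. Their same-numbered libraries correlated at 0.008 to 0.151, and those with different numbers at -0.155 to 0.155. Leaving out 1 library gave 4 to 7 factors in DGCR8 KO, 2 to 4 in DDX6 KO, 1 to 3 in clone 1, 2 to 4 in clone 2 and, relative to the chromosome, 1 to 3 in DDX6 KO. In DGCR8 KO edgeR, limma-trend and the fit of only the groups compared each gave 5 factors, without Tfcp2l1 and Zfp42. Scaling to total counts moved the median of all genes in DDX6 KO by 0.12, with 2822 genes higher and 1356 lower in place of 2088 and 1944, and between the knockouts by -0.13, with 2037 and 3210 in place of 2688 and 2456. Relative to that median, Nanog in DDX6 KO was at 0.60, Tbx3 at 0.57, Klf2 at 0.34 and Tfcp2l1 at -0.53. Subtracting the chromosome median turned the sign of Zfp42 in DGCR8 KO (0.19) and between the knockouts (0.0924), of Nanog in clone 1 (-0.12) and of Esrrb in DGCR8 KO (-0.0758).

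Nanog in DDX6 KO relative to the chromosome was 0.28 and past the limma test without the filter on low counts (adjusted p = 0.0401). In that setting rarely counted genes also enter the scaling, the fit and the chromosome median. Other changes of sign befell values near 0. Esrrb in DGCR8 KO was -0.0153 in DESeq2, -0.0187 with its size factors, -0.0075 with total counts, -0.051 without a filter, -0.0092 with a filter at 10 CPM, -0.0289 with scaling on chromosomes other than 6, 8, X, Y and MT, -0.0143 in the fit of only the groups compared, and -0.0862 to 0.14 with 1 library left out. Pou5f1 in DDX6 KO was 0.0492 with total counts, 0.0745 with the replicate block, and -0.13 to 0.0211 with 1 library left out. With 1 library left out Pou5f1 in DGCR8 KO was -0.0072 to 0.22, Esrrb in DDX6 KO -0.0166 to 0.21 and Nanog in DDX6 KO relative to the chromosome -0.0516 to 0.0711, the last being -0.0578 with the replicate block. Between the knockouts Klf5 was 0.0051 in limma-trend and -0.22 to 0.15 with 1 library left out, and Tfcp2l1 was -0.0427 with total counts, -0.0566 with the replicate block and -0.0741 to 0.18 with 1 library left out. The cause of these changes was not tested. Fits relative to the chromosome were not run in edgeR or DESeq2.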

Other observations

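The factors differed in how much they varied between libraries of the same genotype. Klf5 varied by 24.4% of its mean in WT, 24.9% in DGCR8 KO and 30.9% in DDX6 KO, where counting error would give 5.37%, 6.41% and 6.10%. Zfp42 varied by 5.17%, 6.97% and 5.83%, with a counting error of 3.85%, 4.45% and 3.86%. Sox2 and Klf4 varied more in DGCR8 KO, by 21.0% and 25.9%, than in WT, by 7.90% and 11.5%, a difference that was not tested. The second DGCR8 KO library held both the highest Sox2, at 992 CPM, and the lowest Klf4, at 499 CPM, of all 10 libraries.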
